A study of Daphnia magna with 20 samples.

Results

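Adult males (M) of the water flea Daphnia magna were compared with late embryos (E3), with 2 arrays of males and 3 of embryos out of 20 single-colour arrays of 7 life stages. Both groups came from a single clone kept as parthenogenetic cultures, and each sample held whole animals. The M samples were reproductively active males, aged 16 days in the sample labels, born to females that had been exposed to the crustacean hormone methyl farnesoate and picked out by the size of their first antennae. The E3 samples were embryos of 60 h, at the end of their development in the brood pouch, which could already swim and had not yet fed. The other stages were early embryos (E1, 12 h), juveniles (J, 4 days) and adult females taken early (F1, 15 days), midway (F2, 16 days) and late (F3, 18 days) between moults, with ages as in the sample labels. Their arrays were in the fit, where they added to the estimate of the spread, and they also took part in choosing the tested probes and in each probe's median across arrays. Sex, age, feeding and the hormone exposure of the mothers differ together between M and E3, and their effects cannot be told apart. The labels do not say whether arrays of a group came from separate cultures. The p-values measure the spread between samples within groups, pooled over the 7 stages. Most of the arrays behind this estimate were of stages other than M and E3.

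In Daphnia, females reproduce clonally for most of the season, and genetically identical eggs develop directly into small swimming animals without a larval stage. Males arise from the same genome, since methyl farnesoate acting on the mother turns the developing egg to the male path, and they differ from females in their antennae, their first legs and their testes. A late embryo carries the organs of a free-living animal, but it is immature, still holds yolk, and has not begun to feed or to moult in open water.

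All 162718 probes to gene models were used, and the 76182 that exceeded background on all arrays of 1 or more stages were tested. Background on an array was the 95th percentile of its probes with random sequence. Signals were log2 values after quantile normalization, which gives all arrays the same distribution. A probe was called when limma gave a Benjamini-Hochberg adjusted p under 0.05 over all tested probes and the difference was at least 1.5-fold. The gene models carry identifiers but no names in the data used here, so they are described through their probes, their levels and their behaviour in the other stages.

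The arrays were not equally bright. The share of spots well above background was 17.1% for M replicate 1 and 52.7% for M replicate 2, against 52.5%, 21.8% and 53.7% for E3 replicates 1, 2 and 3. The dim arrays, M replicate 1 and E3 replicate 2, lay on 1 slide, the first to be scanned (slide 1), together with an E1 and an F1 array. M replicate 2 lay on slide 2, E3 replicate 1 on slide 3 and E3 replicate 3 on slide 5. Each group thus had 1 dim array, but it was 1 of 2 in M and 1 of 3 in E3, so slide 1 weighed more in the mean of M. The counts of calls, the mean correlation, the shared levels and the probes seen in 1 group alone are also given without slide 1. Counts and contrasts of the other stages include its E1 and F1 arrays and are not given without them.

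On average, males and late embryos resembled each other more than either resembled any other stage. After each probe was centred on its median across the 20 arrays, the 6 pairs of an M and an E3 array had Pearson correlations of 0.15 to 0.49 across tested probes, with a mean of 0.31. Pairs of M with J arrays averaged 0.11 (-0.05 to 0.32) and pairs of E3 with J arrays 0.21 (0.07 to 0.31), so single pairs overlapped between these comparisons. The mean correlation with E1, F1, F2 and F3 arrays lay between -0.16 and -0.07 for M and between -0.28 and -0.13 for E3. These correlations are over probes that share their arrays and are a description. M replicate 2 was closer to the embryos (0.46, 0.38 and 0.49 with E3 replicates 1, 2 and 3) than M replicate 1 was (0.15, 0.22 and 0.15). The 2 male arrays correlated at 0.48 with each other, no higher than M replicate 2 with the nearest E3 array, whereas the E3 arrays correlated at 0.66 to 0.88 among themselves. Without both slide 1 arrays the mean correlation of M with E3 was 0.53.

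M and E3 both lay at least 2-fold below a probe's median at 8840 tested probes (11.6%) and both at least 2-fold above it at 3545 probes (4.65%). They went opposite ways at fewer probes. M lay above and E3 below the median at 1542 probes (2.02%), and M below and E3 above at 1857 probes (2.44%), by at least 2-fold each. The dim arrays read lower than the others at the median tested probe, at -0.32 log2 units from the probe median in M replicate 1 and -0.26 in E3 replicate 2, against -0.02 in M replicate 2 and 0.01 in E3 replicates 1 and 3. Without these dim arrays, a setting chosen after seeing the data, both groups lay below at 6909 probes (9.07%) and both above at 4555 (5.98%), M above and E3 below at 1291 (1.69%), and M below and E3 above at 558 (0.733%).

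Against this resemblance, 24686 probes (32.4% of those tested) differed between males and late embryos. Of these, 11391 (15%) were higher in M and 13295 (17.5%) were higher in E3. The median log2 difference, M minus E3, was 2.03 among probes higher in M and -1.87 among probes higher in E3, with median standard errors of 0.41 and 0.45. A difference of at least 4-fold was found at 5811 probes higher in M and at 6034 probes higher in E3. There were 1070 probes at least 16-fold higher in M and 862 at least 16-fold higher in E3, and 343 and 98 at least 64-fold higher. Many of these are sizes against dim readings, since 209 of the 1070 (19.5%) were above background on all E3 arrays and 89 of the 862 (10.3%) on all M arrays, and with normexp background correction the 16-fold counts were 489 and 200. The 16-fold counts changed order with the male array used, at 1485 higher in M and 3993 higher in E3 without M replicate 2. Of the tested probes, 847 (1.11%) had passed the background filter through M alone, of which 548 were called higher in M. Another 503 (0.66%) had passed through E3 alone, of which 318 were called higher in E3. Such probes made up 231 (21.6%) of the 1070 and 51 (5.92%) of the 862 probes at least 16-fold apart. With the spread estimated from the 5 arrays of M and E3 alone, limma called 2078 probes. The methods' t test, on the same 5 arrays, called 605 probes after adjustment.

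**Figure D1:**
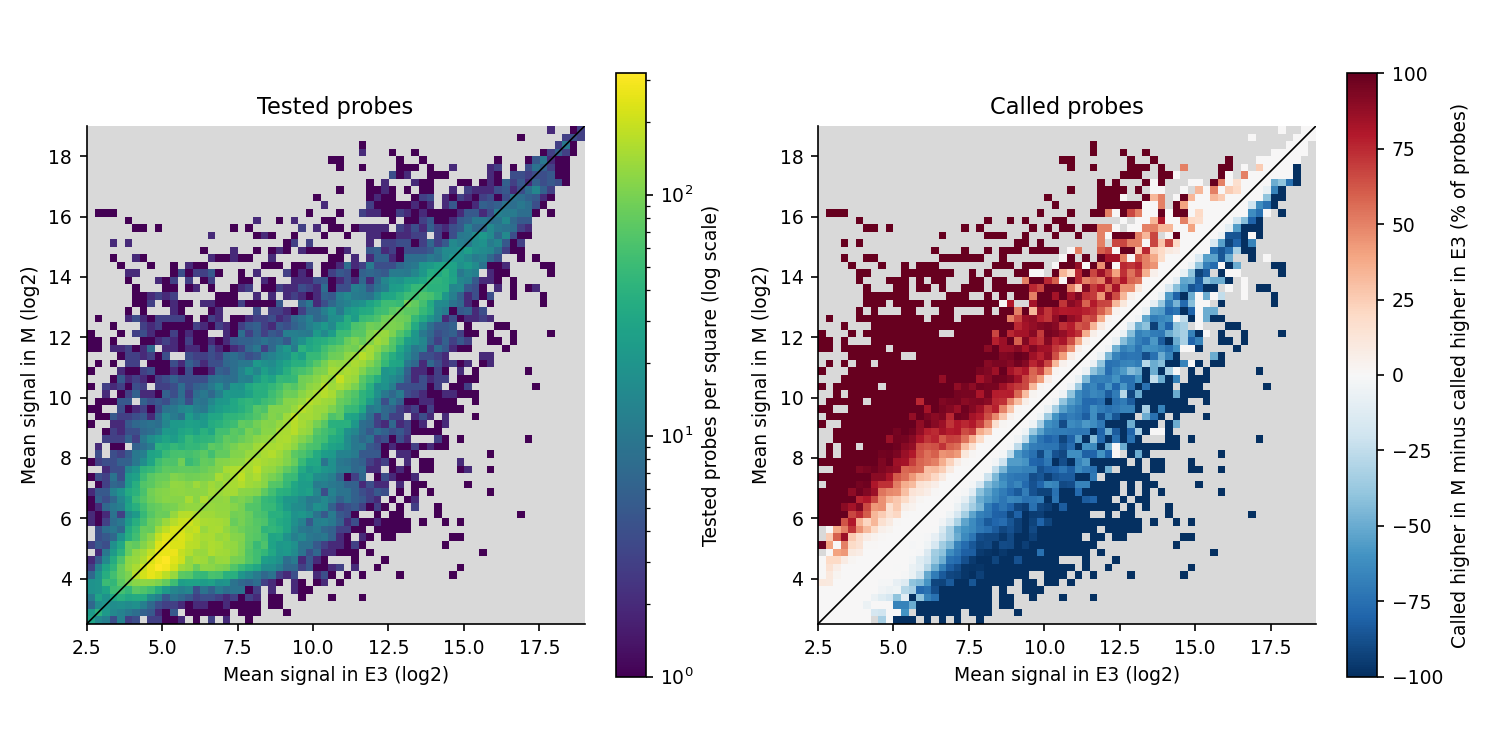
Mean normalized signal (log2) of each tested probe in M (vertical axis, 2 arrays) against E3 (horizontal axis, 3 arrays), in squares of equal size with the line of equal signal. The left panel shows how many of the 76182 tested probes fall in each square and the right panel the share called higher in M minus the share called higher in E3 (grey, no probe), with 11391 probes called above the line and 13295 below it.

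The dimmest probes were called least often, and the direction of the calls changed with brightness. Tested probes were ranked by mean signal over all arrays and split into 3 equal groups of 25394. In the dimmest group, 8.34% were called higher in M and 12.7% higher in E3. In the middle group the shares were 15.4% and 22.5%. In the brightest group the order turned, with 21.1% higher in M and 17.1% higher in E3. The median standard error of a difference was 0.72, 0.54 and 0.30 in the dimmest, middle and brightest group. The random probes were computer-generated and served as negative controls. Among 137 of them that passed the same filter, 8 (5.84%) were called higher in M and 21 (15.3%) higher in E3. Their part in the counts of dim probes was not tested.

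The 51496 probes that were not called include many that these 5 arrays could not resolve. The 95% interval of the difference lay within 2-fold at 9647 tested probes (12.7%) and within 1.5-fold at 1281. At 22535 of the probes not called, the interval reached 4-fold or more. The M arrays both lay outside the range of the E3 arrays at 23686 of the called probes, and at 48% of all tested probes. For a single probe, an exact permutation test of 2 against 3 arrays cannot give a two-sided p below 0.1. The limma fit of the 5 arrays alone called 2078 probes, of which 2057 were among those called with all arrays in the fit.

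The counts, and above all those of large differences towards E3, depended on which male array was used. Leaving out M replicate 1 gave 7095 probes higher in M and 6370 higher in E3, and leaving out M replicate 2 gave 10767 and 15767. The probes at least 16-fold higher in M numbered 1009 without M replicate 1 and 1485 without M replicate 2. Those at least 16-fold higher in E3 numbered 265 without M replicate 1 and 3993 without M replicate 2, so that the order of the 16-fold counts reversed between the male arrays. Without both slide 1 arrays they were 896 higher in M and 245 higher in E3, and with only these arrays for M and E3 they were 3989 and 4379. Among the 13295 probes higher in E3, 2179 (16.4%) spanned at least 8-fold between the 2 male arrays, and M replicate 1 was the lower of them at 2172. Among the 11391 probes higher in M, 95 (0.834%) did so. The embryo arrays had a like spread on the other side, since 1128 (9.9%) of the probes higher in M spanned at least 8-fold between E3 arrays, with E3 replicate 2 the lowest at 1021, against 121 (0.91%) of the probes higher in E3. Leaving out 1 of the E3 arrays gave 10121 to 12243 probes higher in M and 10421 to 13554 higher in E3.

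**Figure D2:**
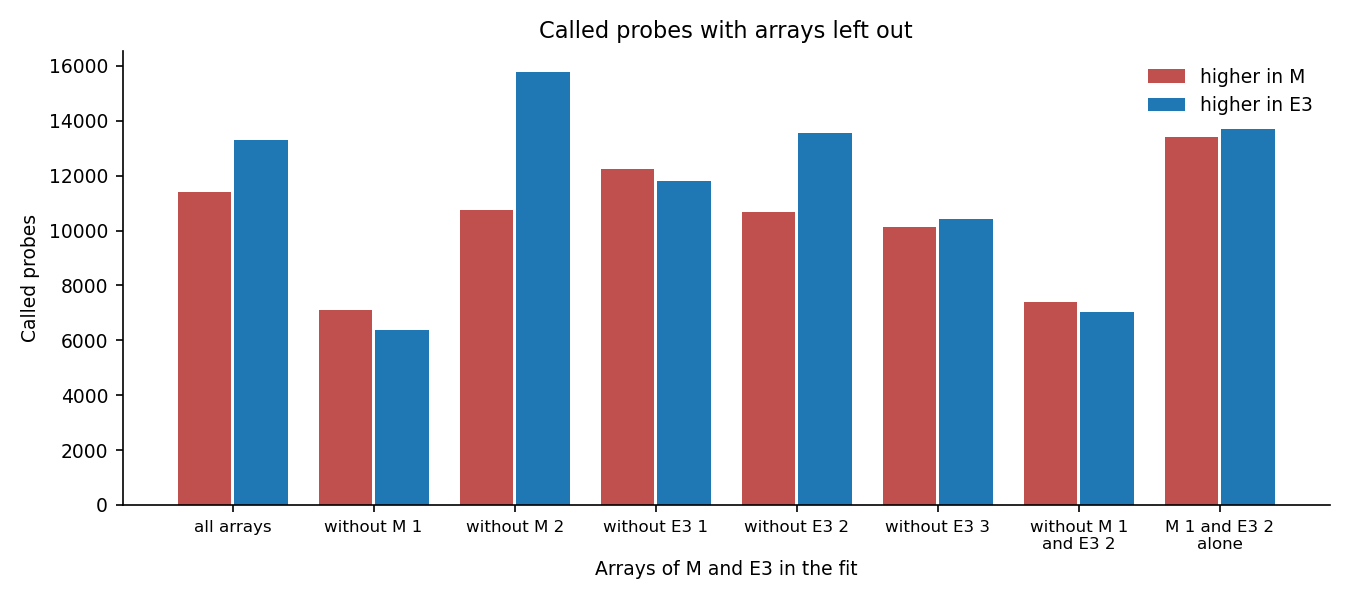
Number of probes called higher in M (red) and higher in E3 (blue) with all arrays, with 1 array of either group left out, without the slide 1 arrays M 1 and E3 2, and with these as the only arrays of their groups. Counts fell most without M 1, to 7095 and 6370.

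Slide 1 held 1 array of each group, so the comparison could be made within it and again on the remaining arrays. Among the remaining arrays, M and E3 shared no slide and no scan date, and M had 1 array. Group, slide and scan date cannot be told apart there. The log2 difference on slide 1 (M replicate 1 minus E3 replicate 2) and that on the other slides (M replicate 2 minus the mean of E3 replicates 1 and 3) correlated at 0.55 over tested probes and had the same sign at 69.7%. Differences spread more on slide 1, with a standard deviation of 2.39 against 1.41 on the other slides. In fits that kept only the other slides for M and E3, 7409 probes were called higher in M. The M and E3 arrays of slide 1 took no part in that contrast, although its other arrays did enter the fit and all its arrays the filter and the normalization. On slide 1, 6745 of them (91%) were again higher in M and 6164 (83.2%) by at least 1.5-fold. The same fits called 7038 probes with a value on both sides higher in E3, of which 6262 (89%) were again higher in E3 on slide 1 and 5139 (73%) by at least 1.5-fold. A difference of at least 1.5-fold in the opposite direction was seen at 5.14% of the calls higher in M and 3.52% of those higher in E3. Over all tested probes, 33.7% were at least 1.5-fold higher in M on slide 1 and 34.3% at least 1.5-fold higher in E3.

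The converse fit, chosen after seeing the data, kept only slide 1 for M and E3, with 1 array against 1 that were assumed to vary like those of the other stages. Of 13391 probes called higher in M on slide 1, 68.1% were at least 1.5-fold higher in M elsewhere, and of 13685 called higher in E3, 61.6% were at least 1.5-fold higher in E3 elsewhere. Over all tested probes, 29.8% were at least 1.5-fold higher in M and 30.4% at least 1.5-fold higher in E3 on the other slides. A difference of at least 1.5-fold in the opposite direction on the other slides was seen at 3.25% of the calls higher in M and 10.4% of those higher in E3. Without the 2 arrays of slide 1, the fit called 7409 probes higher in M and 7040 higher in E3. With slide as a block in the fit of all arrays, 11921 probes were higher in M and 13831 higher in E3.

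**Figure D3:**
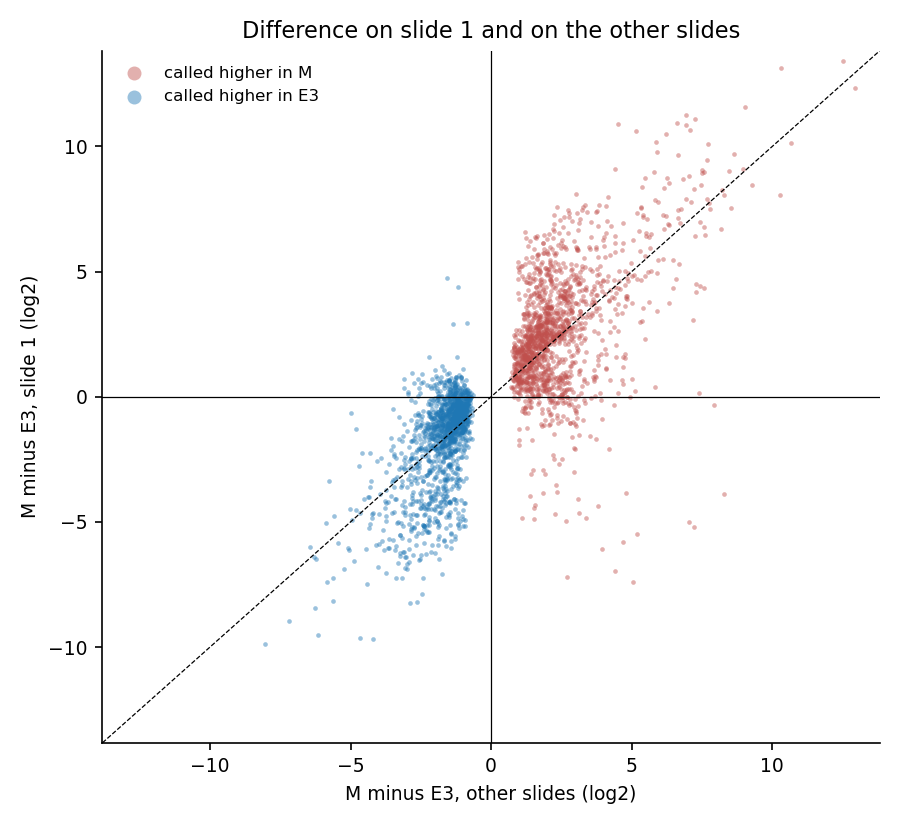
Log2 difference M minus E3 on slide 1 (vertical axis, 1 array of each group) against that on the other slides (horizontal axis, 1 M and 2 E3 arrays), for 1 in 5 of the probes called on the other slides, with red for higher in M and blue for higher in E3. Most points lie in the lower left and upper right quadrants, as 91% of the calls higher in M and 89% of those higher in E3 kept their sign on slide 1.

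Each gene model had up to 4 probes, spread along its sequence. They were read on the same samples, so they are not replicates of the group difference. Of 28448 gene models with a tested probe, 12968 (45.6%) had at least 1 called probe. There were 5683 (20%) with probes called higher in M only and 7080 (24.9%) with probes called higher in E3 only. With 1 value for each gene model, the mean of its tested probes, 3998 were higher in M and 5056 higher in E3. At least 2 probes were called in 6494 gene models, and the other called models rested on 1 called probe. In 6289 (96.8%) of the 6494, all called probes went in 1 direction. The remaining 205 had probes in both directions, 150 of them by at least 2-fold each way and 35 by at least 4-fold each way.

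Among 10332 gene models with at least 4 tested probes, all probes were called higher in M in 781 (7.56%) and all higher in E3 in 811 (7.85%), while none was called in 4095 (39.6%). Every probe differed by at least 16-fold in 97 models higher in M and in 37 higher in E3, and by at least 64-fold in 34 higher in M and in 4 higher in E3. The median of the smallest log2 difference within a model was 1.87 for those higher in M and 1.48 in size for those higher in E3. These sizes were not computed without single arrays, and the order of the 16-fold counts of probes depended on the male array.

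Gene models that the assembly had put at the same locus, by their shared identifier up to the transcript number, did not always move together. There were 433 loci with at least 2 models called in 1 direction. All models were higher in M at 166 of these loci and all higher in E3 at 180, and at 87 (20.1%) some models were higher in M and others in E3. With at least 2 called probes required of each model, 151 loci remained, of which 77 were higher in M throughout, 52 higher in E3 throughout and 22 (14.6%) mixed. Whether such models are transcripts of 1 gene or related genes cannot be told from the identifiers.

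In each direction, the 2 gene models whose weakest probe differed most are given array by array. For dmag2vel4f4xincok49Loc4658t3, the 4 probes read 15.66, 15.72, 14.93 and 14.75 (log2 signal) in M replicate 1 and 15.56, 15.58, 14.54 and 14.38 in M replicate 2. In E3 they read 4.71, 4.92, 3.80 and 4.05 in replicate 1, 3.33, 4.76, 4.80 and 3.91 in replicate 2 and 4.20, 4.99, 3.95 and 4.07 in replicate 3. The groups lay far apart, and 11 of the 12 readings in E3 were not well above background. The log2 differences were 10.56 to 11.53 (standard error 0.45 to 0.78), with limma adjusted p of at most 1.09e-07. Set against the lowest reliable signal of each E3 array, probes 1, 3 and 4 were at least 934-fold, 511-fold and 455-fold higher in M. In the other stages the same probes never read above 7.15, a level reached in E1, and were well above background on 4 to 10 of 15 arrays.

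For veln4ptr084k41Loc59t5, the probes read 13.91, 15.03, 15.38 and 15.39 in M replicate 1 and 13.49, 14.45, 14.98 and 15.02 in M replicate 2. All 12 readings in E3 were not well above background, and lay between 2.81 and 6.58. The log2 differences were 9.59 to 11.84 (standard error 0.59 to 1.28), with adjusted p of at most 3.09e-05. Bounded by the lowest reliable signal, the 4 probes were at least 249-fold, 511-fold, 694-fold and 707-fold higher in M. Outside M this model read low, and its probes were well above background on 0, 4, 1 and 5 of the 15 arrays of other stages, with 8.73 in an F1 array as the highest reading.

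The model velh8ptr090k27Loc71t1 ranked first towards E3 by its weakest probe, but its level varied widely among the embryo samples. Its probes read 2.62, 3.69, 3.94 and 4.50 in M replicate 1 and 6.15, 6.85, 2.92 and 4.29 in M replicate 2. In E3 they read 11.08, 11.01, 7.26 and 7.17 in replicate 1, against 17.32, 17.07, 14.75 and 14.69 in replicate 2 and 16.50, 16.53, 12.85 and 12.41 in replicate 3. All readings in E3 lay above all readings in M of the same probe, while E3 replicate 1 was lower than the other embryo samples at every probe. The log2 differences were -10.58, -9.60, -8.19 and -7.02 (standard error 1.36 to 1.70, adjusted p at most 0.0013), and the median over probes was -10.95 without E3 replicate 1 and -7.56 without E3 replicate 2. In a fit of the 5 arrays alone the call was lost (adjusted p = 0.15 for the weakest probe). At probe 1, juveniles gave 8.39 to 8.63, F1 females 5.68 to 9.93 and early embryos 2.63 to 4.50. At probe 2 early embryos gave 3.39 to 9.11 with a median of 8.04, well above background on 2 of 3 arrays, so the probes differed on this stage.

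The model velb9ptf234k97Loc42t1 was steadier in embryos. Its probes read 3.86, 2.62, 3.14 and 4.03 in M replicate 1 and 6.07, 5.77, 5.79 and 5.93 in M replicate 2, well above background only in the second. In E3 they read 11.72, 11.86, 11.29 and 12.00 in replicate 1, 11.11, 11.44, 11.19 and 11.65 in replicate 2 and 11.66, 11.86, 11.63 and 11.95 in replicate 3. M replicate 2 read higher than M replicate 1 at every probe, the embryo arrays lay close together, and the groups did not overlap. The log2 differences were -7.52 to -6.53 (adjusted p at most 7.04e-05), with a median of -5.76 without M replicate 1 and -8.03 without M replicate 2. This model was also well above background after release from the brood pouch, at 9.61 to 10.65 in J, 8.99 to 9.75 in F1, 7.87 to 9.05 in F2 and 6.83 to 9.44 in F3, and was at 6.60 or lower in E1, so that males and early embryos stood out as its low stages.

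**Figure D4:**
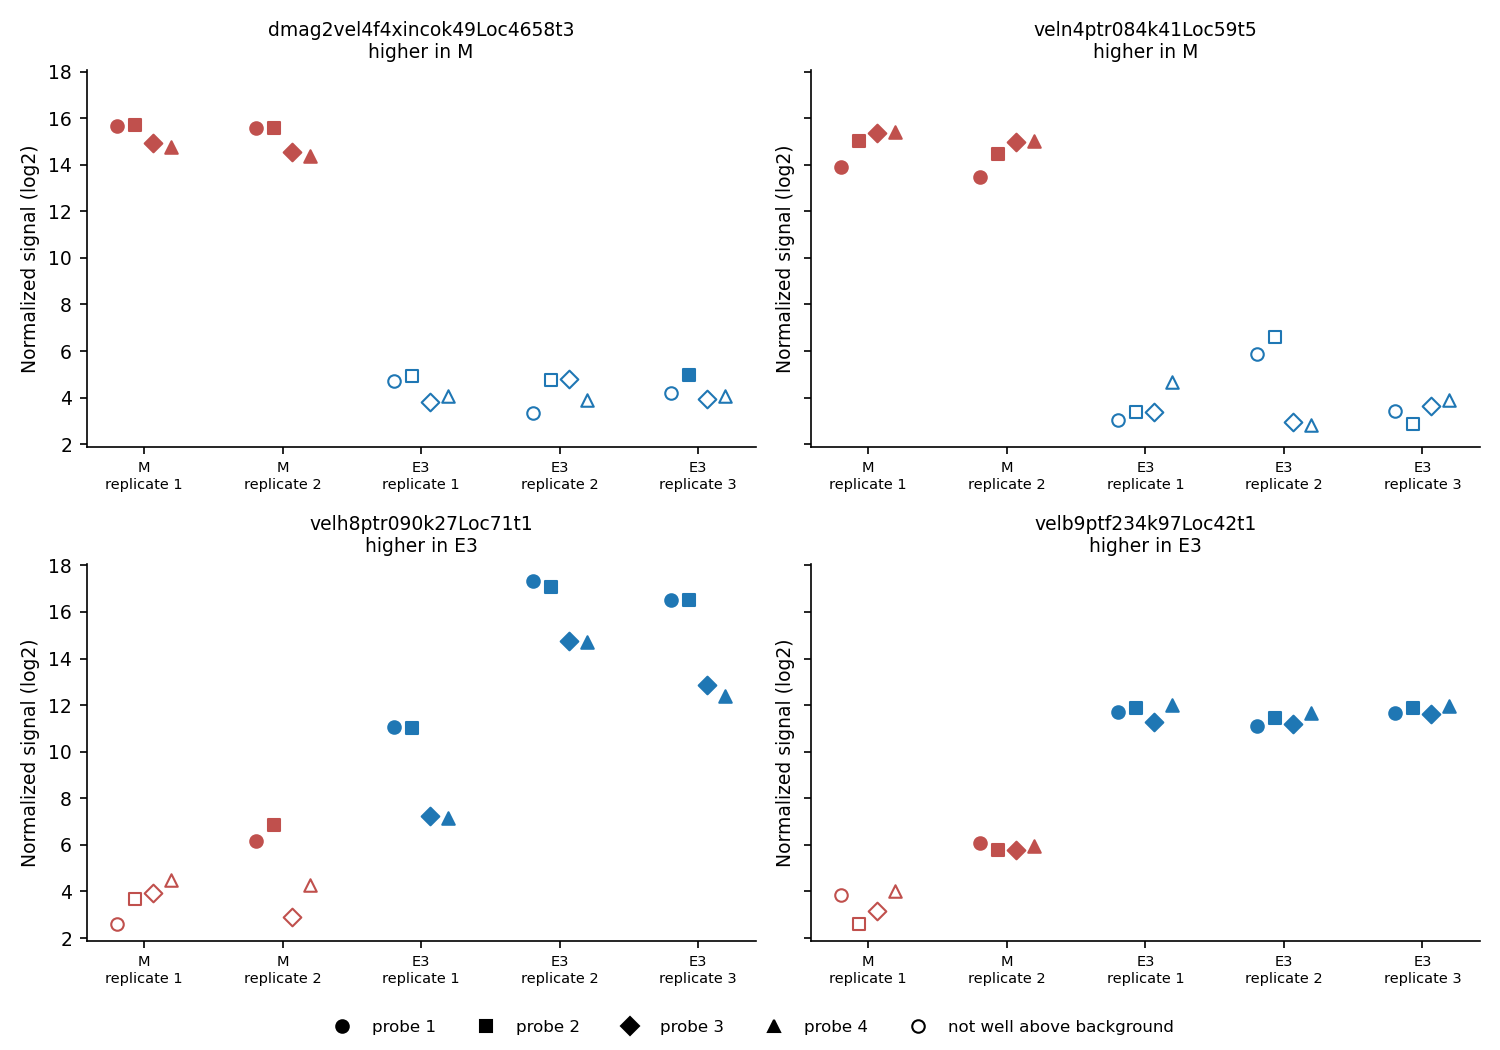
Normalized signal (log2) of the 4 probes of each of 4 gene models in the 2 M arrays (red) and the 3 E3 arrays (blue), with open symbols for readings that were not well above background. The models of the upper row read 13.49 or more in M and 6.58 or less in E3, and in the lower row E3 replicate 1 of velh8ptr090k27Loc71t1 lies below the other embryo arrays.

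Some probes were seen in 1 of the groups alone. By the scanner software's own test, 226 probes of 135 gene models were well above background on both M arrays and on no E3 array. The reverse, well above background on all E3 arrays and on no M array, held for 174 probes of 131 gene models. With the signal in the dark group set no lower than the lowest reliable signal of each array, 225 of the M probes were at least 2-fold higher in M and 134 at least 16-fold, with a median of at least 20.1-fold. Of the E3 probes, 113 were at least 2-fold higher in E3 and 8 at least 16-fold, with a median of at least 2.51-fold over the 168 that gave a bound. The bound depends on the dim arrays. The lowest reliable log2 signal was 8.68 on M replicate 1 and 7.76 on E3 replicate 2, against 4.71 to 4.76 on the other arrays of both groups. A probe seen in M had to reach 8.68 on M replicate 1, whereas a probe seen in E3 was set against 8.68 on that array. These limits alone give larger bounds to M, so the bounded counts and medians of the 2 groups cannot be compared. The 16-fold counts and medians were not computed without slide 1. Without both slide 1 arrays, 1438 probes were at least 2-fold higher in M and dark in E3, and 910 were at least 2-fold higher in E3 and dark in M.

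The same probes were looked up in the other stages. Of the 226 probes seen in M and not in E3, 24 were also well above background on no array of any other stage, while 61 were so on all arrays of all 3 female stages. They were well above background on every array in J for 82, in F1 for 70, in F2 for 119, in F3 for 108 and in E1 for 2. Of the 174 seen in E3 and not in M, 3 were seen in no other stage and 4 on all arrays of all 3 female stages. They were seen on all J arrays for 95, all F2 arrays for 92, all F3 arrays for 33, all F1 arrays for 13 and all E1 arrays for 19. Shares of all tested probes dark in all other stages, or seen in all 3 female stages, are not given by this mark. The counts for these 2 patterns therefore have no baseline. Of all tested probes, 92.7% were well above background on all J arrays, 53% on all F1, 96.3% on all F2, 88.2% on all F3 and 36.4% on all E1 arrays. Counts over all F1 or all E1 arrays are limited by their slide 1 arrays. Of the tested probes, 61.1% exceeded background on F1 replicate 3, against 76.1% and 83.6% on replicates 1 and 2. On E1 replicate 2 it was 49.8%, against 66.7% and 77.4% on replicates 1 and 3. Counting probes with a bound of at least 2-fold, 4 probes of the same gene model were of this kind in 11 models seen in M and 1 seen in E3.

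The stages that took no part in the contrast showed where else the called probes were active. Probes higher in M lay above background on all arrays of all 3 female stages for 75.5%, against 58.3% of probes higher in E3 and 55.3% of all tested probes. On all J arrays, 89% of the probes higher in M and 93.3% of those higher in E3 lay above background, against 88.1% of all tested probes. On all E1 arrays the shares were 62.4%, 52.2% and 47.4%, so the excess among probes higher in M was not confined to females. Calls higher in M were also more frequent among bright probes (21.1% of the brightest group, 8.34% of the dimmest). The part of brightness in these shares was not tested.

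Adult females were compared with juveniles in the same fit, a contrast that uses no M and no E3 array and in which 25% of all tested probes were called. Of the probes higher in M, 29.2% were higher in females than in juveniles and 7.06% lower, with a median log2 difference of 0.44. Of the probes higher in E3, 7.33% were higher in females than in juveniles and 21.4% lower, with a median of -0.31. Over all tested probes the shares were 12.2% and 12.8%, and over probes not called between M and E3 they were 9.67% and 11.9%.

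Juveniles against early embryos, where 53.8% of all tested probes were called, gave a pattern that depended on the size of the difference. Of all probes higher in M, 24.1% were higher in J than in E1 and 36.2% lower, and of all probes higher in E3, 37.5% were higher and 28.8% lower, against 27.4% and 26.4% of all tested probes. Among probes at least 16-fold higher in M the order turned, with 46.7% higher in J than in E1 and 8.13% lower. Among probes at least 16-fold higher in E3, 76.2% were higher in J than in E1 and 5.92% lower, with a median log2 difference of 3.81. Of the first set 21.6% had passed the background filter through M alone, and of the second 5.92% through E3 alone. By this choice they were not above background on all arrays of J or of E1, so the shares of the 2 sets cannot be compared directly. In males, the probes at least 16-fold higher in E3 had a median of -3.48 log2 units from the probe median in replicate 1 and -0.39 in replicate 2, and 10.3% of them were above background in replicate 1 against 85.6% in replicate 2. In the E3 arrays their median was 2.63 to 3.03, in juveniles 0.30 to 0.53 and in early embryos -2.89 to -2.74. The male arrays thus disagreed on these probes, while the juvenile arrays and the early embryo arrays each lay close together. The E3 arrays did so too, at probes chosen for a high mean over them. The probes at least 16-fold higher in M had medians of 2.78 and 2.60 in the male arrays, with 99.1% and 100% above background. They were chosen for a high mean over these 2 arrays, so this is no test of agreement between them. In whole animals, fewer cells of a type and less transcript in each cell give the same lower signal and cannot be told apart.

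Within the female intermoult cycle, F3 against F1, 16.6% of all tested probes were called, 7.4% higher and 9.19% lower in F3. Of the probes higher in M, 8.02% were higher and 8.02% lower in F3 than in F1. Of the probes higher in E3, 6.52% were higher and 16.1% lower in F3. Among probes at least 16-fold higher in M, 5.79% were higher and 20.7% lower in F3, and among those at least 16-fold higher in E3, 13.6% were higher and 38.1% lower. Probes that passed the background filter through M or E3 alone are in these sets too.

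**Figure D5:**
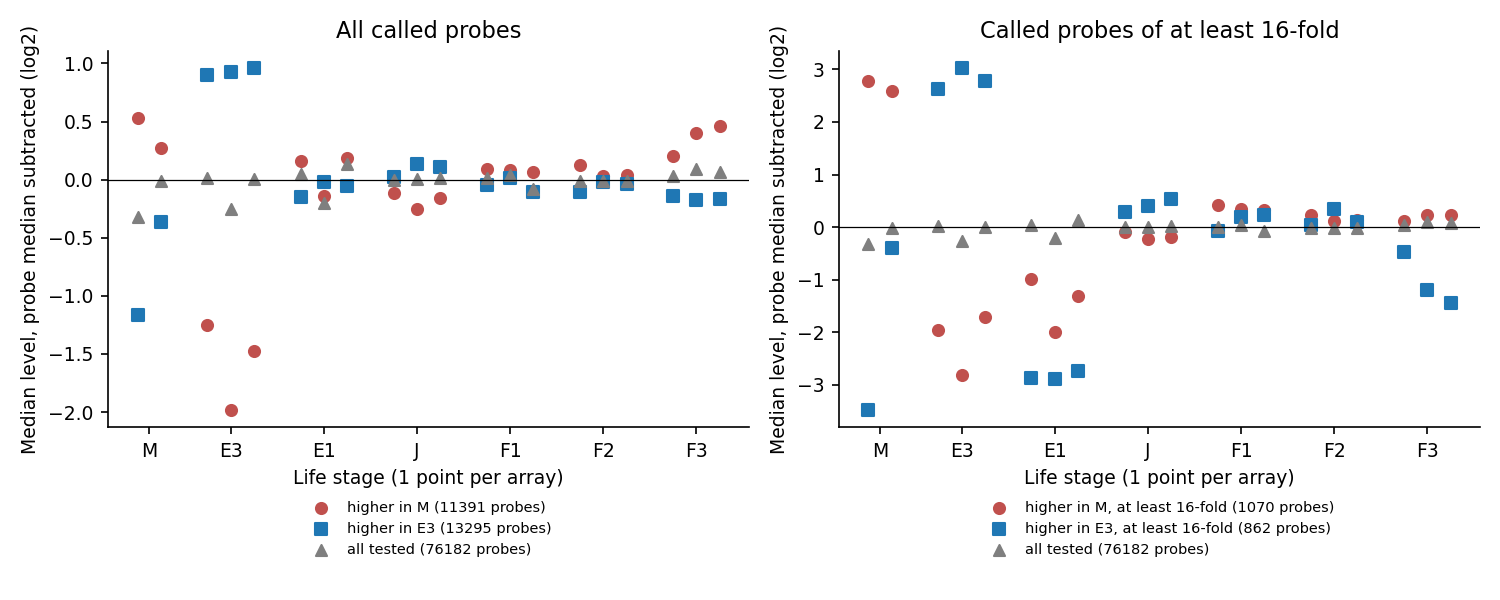
Median level of probe sets in each of the 20 arrays (log2, relative to the probe's own median across arrays), grouped by life stage with M and E3 on the left, for all called probes (left) and for those of at least 16-fold (right). The 2 male arrays lie close together at probes at least 16-fold higher in M (2.78 and 2.60), a set chosen for a high mean over these arrays. They lie far apart at probes at least 16-fold higher in E3 (-3.48 and -0.39).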

How the data were processed

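Whole-animal RNA of 2 M and 3 E3 samples was hybridised to single-colour Agilent arrays with up to 4 probes a gene model. The authors deposited each array's scanner output, in which spot intensity had been extracted with Feature Extraction (version 10.5.1.1 in the file headers) and corrected for background. They also deposited a matrix of log2 values, quantile-normalized and set relative to each probe's median. It was compared with values computed here with outlier spots kept, less each probe's median. The lowest correlation was 0.9996 over the tested probes of an array. The matrix served as an alternative.

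Spots marked as outliers were dropped, spots of a probe were averaged as log2 processed signal, and all 20 arrays were quantile-normalized. A probe was above background where it exceeded the 95th percentile of 2532 random probes. Groups were compared with limma 3.58.1 in R 4.3.3 (lmFit and eBayes, 7 groups, contrast M minus E3), and p-values were adjusted by Benjamini-Hochberg over the 76182 tested probes. Two-sided tests were used. The limma step was run on simulated data with independent normal noise. The simulation held no slide effect and no dim arrays, so it cannot show how these affect the calls. limma replaced the t test of the methods, which was kept as an alternative. Signals "well above background" carry that mark by the scanner software on all spots of the probe, and a fold against a dark group was bounded by the lowest signal with that mark on each of its arrays. Precision is limited by the number of arrays.

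Gene models named in the text were those with at least 4 tested probes, all called in 1 direction, ranked by their smallest difference, the first 2 of different loci in each direction. None of the 41316 gene models matched the reference gene table, and no sequences were used. The groups and lists were chosen with earlier results of these data known. The methods state 3 replicates and a lower male age than the labels. The 2 male arrays analysed here are those of the labels. Alternatives covered background correction, normalization, filters, test, fold limit, slide, scan date, replicate number, array weights and arrays left out.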

Additional observations from a re-analysis of the deposited data

How the results depend on the processing

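Of the alternatives, those that kept all arrays of the 7 stages in the fit and changed background correction, scaling, filter, fold limit, slide or scan date left the counts of called probes and gene models within 1.5 times. Fitting the 5 arrays alone gave 2078 probes (1393 higher in M, 685 higher in E3, 1210 gene models), and normalizing them alone as well gave 3438 (2151, 1287 and 1942). The share of called probes higher in M was then 67% and 62.6%, against 46.1% with all arrays. The methods' t test called 1218 probes at an unadjusted p under 0.001 (662, 556 and 937) and 605 after adjustment (329, 276 and 500). Array weights gave 10877 (5198, 5679 and 6358). Requiring 2 probes called the same way left 6348 gene models. Leaving out the slide 1 arrays of both groups gave 14449 probes (7409, 7040 and 8166), a mean correlation of M with E3 of 0.53, and 1438 and 910 probes at least 2-fold higher in M and in E3 and dark in the other group.

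With 1 array left out at a time, 13465 to 26534 probes were called (7095 to 12243 higher in M, 6370 to 15767 higher in E3, 7510 to 14794 gene models), the lowest totals without M replicate 1. The mean correlation was 0.20 to 0.46. Probes dark in the other group numbered 226 to 609 for M, the highest without M replicate 1, and 113 to 2600 for E3, the highest without M replicate 2. Deviations of same-numbered arrays from their group means correlated at -0.06 (replicate 1) and -0.15 (replicate 2). With 2 male arrays the deviations of 1 mirror those of the other, so these values cannot show whether arrays were paired. The slide 1 arrays, E3 replicate 2 and M replicate 1, gave 0.15, and E3 replicate 3 and M replicate 2, on different slides, gave 0.19. A fit with a replicate block called 23425 probes. No named gene model changed direction under any alternative. The call of velh8ptr090k27Loc71t1 was lost under 4 alternatives and those of veln4ptr084k41Loc59t5 and velb9ptf234k97Loc42t1 under 2 each, the t test at both thresholds among them.

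Scaling by the 75th percentile moved the median difference over tested probes to -0.03, against -0.15 after quantile normalization. The number of probes at least 16-fold apart was 489 higher in M and 200 higher in E3 with normexp background correction, and 810 and 401 with the percentile scaling. The causes of these changes were not tested. Signal over background on slide 1 limits what can be said of dim probes.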
